A study of Homo sapiens with 6 samples.

Results

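The RNAs described here are the small nucleolar RNAs (snoRNAs) and small Cajal body RNAs (scaRNAs) measured in the breast cancer cell line MDA-MB-231, an established human line. They are the rows of the authors' table whose gene symbol begins with SNORD, SNORA or SCARNA and a number, which gave 143 of 15917 genes. Of these, 46 were box C/D snoRNAs (SNORD), 81 were H/ACA snoRNAs (SNORA) and 16 were SCARNA genes. The study asked which transcripts respond when the RNA-binding protein RBMS3 is silenced. Its 6 libraries came from cells with a control hairpin (shCTRL, 2 biological replicates) and from cells with either of 2 hairpins against *RBMS3* (shRBMS3-B3 and shRBMS3-C3, 2 biological replicates each). The labels give the genotype of the shCTRL cells as WT and that of the knockdown cells as RBMS3 KD1 and RBMS3 KD2. All 3 groups are the same cell line, so no second line or tissue stands behind any value.

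The level of a gene is given throughout as a mean normalized count, a value that the authors averaged over libraries, divided by the length of the annotated RNA in kilobases (kb). There is 1 such value for each gene. No spread between replicates, no depth of a library and no difference between knockdown and control cells can be drawn from it, and which of the 6 libraries entered the mean is not given in the sources used here. *RBMS3* itself had a mean normalized count of 272, or 32.1 per kb, which as a mean over conditions does not check the knockdown. Of 9 marker genes looked up, the mesenchymal gene *VIM* stood at 32189 per kb, *AXL* at 7502, *CD44* at 1850, *EGFR* at 1103 and *ERBB2* at 342 per kb. The epithelial keratin gene *KRT18* stood at 8980 per kb and the epithelial cadherin gene *CDH1* at 6.57 per kb, and the hormone receptor genes *ESR1* and *PGR* were not among the listed genes. These markers were chosen after the table was opened.

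Box C/D snoRNAs pair with a target RNA and direct the methylation of a ribose, while H/ACA snoRNAs direct the change of a uridine to pseudouridine. Most act on ribosomal RNA in the nucleolus, a few are needed for cleavage of the ribosomal precursor, and scaRNAs act on spliceosomal RNAs in Cajal bodies. In human cells the majority are cut out of the introns of host genes and protected by a set of core proteins that bind the boxes. Box C (A or G, then UGATGA) lies near the 5′ end and box D (CUGA) near the 3′ end of a C/D RNA. Box H (ANANNA) lies between the 2 hairpins of an H/ACA RNA and the ACA box close to its 3′ end.

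The sequences shown are those of abundant RNAs of each class and of C/D copies that differ in level, all read from GRCh38 on the strand of the gene and written as DNA, with T for U. Capitals mark box C (up to 1 mismatch) and box D in the C/D RNAs and the ACA box in the other classes. SNORD3A, the U3 snoRNA, lies at chr17:19188016-19188232 on the plus strand, and its box C is not in the first 25 bases.
SNORD3A: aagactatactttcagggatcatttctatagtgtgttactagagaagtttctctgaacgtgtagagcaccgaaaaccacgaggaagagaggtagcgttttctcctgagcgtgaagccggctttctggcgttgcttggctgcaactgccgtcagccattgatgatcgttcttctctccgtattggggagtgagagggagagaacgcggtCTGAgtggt
SNORD10 (chr17:7576811-7576952, plus strand) lies in an intron of *EIF4A1*.
SNORD10: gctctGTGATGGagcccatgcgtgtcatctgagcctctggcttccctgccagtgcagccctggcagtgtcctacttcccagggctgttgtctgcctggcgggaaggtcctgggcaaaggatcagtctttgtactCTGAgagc
SNORD14C (chr11:123059335-123059422, minus strand) lies in an intron of *HSPA8*, whereas SNORD14B (chr11:17075779-17075868) and SNORD14A (chr11:17074654-17074744), both on the minus strand, lie in introns of *RPS13*.
SNORD14C: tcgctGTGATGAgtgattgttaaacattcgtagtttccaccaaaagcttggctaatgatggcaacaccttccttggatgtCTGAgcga
SNORD14B: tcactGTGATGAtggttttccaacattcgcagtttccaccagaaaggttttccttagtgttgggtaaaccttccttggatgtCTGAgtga
SNORD14A: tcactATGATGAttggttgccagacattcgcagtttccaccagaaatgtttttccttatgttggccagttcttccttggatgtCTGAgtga
SNORD22 (chr11:62852910-62853035, minus strand) is an intronic RNA of *SNHG1*.
SNORD22: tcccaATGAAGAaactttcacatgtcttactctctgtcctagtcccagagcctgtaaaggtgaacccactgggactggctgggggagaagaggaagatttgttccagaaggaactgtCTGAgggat
SNORA73B (chr1:28508559-28508762) and SNORA73A (chr1:28507366-28507571), both on the plus strand, are copies of the U17 snoRNA in introns of *SNHG3*, and SNORA24 (chr4:118279190-118279320, plus strand) lies in an intron of *SNHG8*.
SNORA73B: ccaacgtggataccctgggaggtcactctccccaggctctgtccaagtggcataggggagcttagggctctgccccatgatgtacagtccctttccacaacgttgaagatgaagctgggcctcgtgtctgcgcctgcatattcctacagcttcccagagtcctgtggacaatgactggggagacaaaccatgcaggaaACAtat
SNORA73A: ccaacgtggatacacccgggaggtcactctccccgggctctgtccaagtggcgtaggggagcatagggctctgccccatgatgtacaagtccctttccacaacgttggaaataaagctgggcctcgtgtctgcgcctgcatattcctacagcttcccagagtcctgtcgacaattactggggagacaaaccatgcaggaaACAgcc
SNORA24: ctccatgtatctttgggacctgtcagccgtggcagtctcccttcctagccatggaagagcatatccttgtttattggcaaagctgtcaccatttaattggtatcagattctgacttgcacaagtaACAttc
SCARNA13 (chr14:95533355-95533629, minus strand) lies in an intron of *SNHG10* and SCARNA22 (chr4:1974636-1974760, plus strand) in an intron of *NSD2*.
SCARNA13: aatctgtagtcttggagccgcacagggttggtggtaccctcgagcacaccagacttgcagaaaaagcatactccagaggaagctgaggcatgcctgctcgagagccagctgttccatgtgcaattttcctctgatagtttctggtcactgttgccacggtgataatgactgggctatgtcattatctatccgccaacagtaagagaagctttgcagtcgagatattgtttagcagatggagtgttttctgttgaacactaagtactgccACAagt
SCARNA22: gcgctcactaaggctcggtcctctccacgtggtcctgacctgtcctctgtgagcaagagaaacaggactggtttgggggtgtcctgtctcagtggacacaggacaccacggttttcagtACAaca

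Several rows need care before their values are read. The identifiers of SCARNA2, SCARNA9 and SCARNA17 belong to models of long non-coding RNA in GENCODE, with 427 and 353 bases for the first pair and 1615 bases for SCARNA17, against 421 bases for its RefSeq scaRNA. The SCARNA17 identifier is that of the gene *SNHG22*, so its count is that of this gene and not of the scaRNA alone. For 7 RNAs (SNORA16A, SNORA17A, SNORA17B, SNORA50A, SNORD60, SCARNA2 and SCARNA4) the annotation holds a second gene of the same RNA. The GENCODE models of the 4 SNORD3 genes run from 581 to 791 bases around a U3 sequence of 217 bases, so their levels per kb are low for the RNA itself. In all, 42 of the 143 RNAs (10 C/D, 31 H/ACA and 1 SCARNA) had an annotated copy at least 90% identical over the whole length, and how reads were shared among such copies is uncertain. On the same strand, 81 of the 143 overlapped an annotated exon of another gene, so reads of spliced or intron-retaining host transcripts and of the small RNA cannot be fully told apart. How completely RNAs of this length were captured in the libraries was not tested.

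A few RNAs carried most of the signal in these classes. Median mean normalized counts per kb were 1269 for C/D RNAs (middle 50% from 640 to 3463), 1351 for H/ACA RNAs (617 to 3245) and 1131 for SCARNA genes (463 to 2972). The ranges were 282 to 82299, 187 to 66704 and 23.1 to 5655. Without the long non-coding models, the lowest SCARNA value was 231 per kb. Unscaled, the median mean normalized counts were 113, 189 and 267, in the order of the median lengths of 89.5, 134 and 267.5 bases. Without the RNAs that overlap an exon of another gene, the medians per kb were 1195, 822 and 551, so that C/D stood above H/ACA. With no value per library, whether any of these class medians differ beyond replicate error cannot be said. The 143 RNAs held 0.649% of the summed mean normalized counts of the table, of which C/D RNAs made up 61.2%, H/ACA RNAs 33.6% and SCARNA genes 5.20%. SNORD3A alone made up 40.3% of the sum over the 143 RNAs, and the 5 largest together 63.4%.

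**Figure D1:**
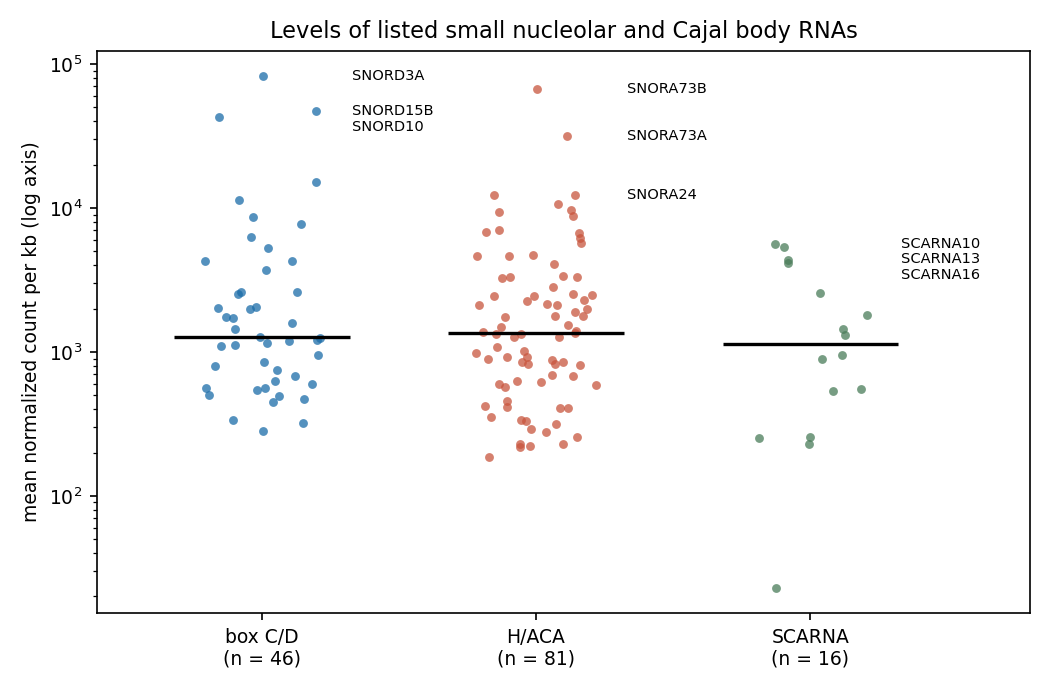
Each point is 1 RNA, on a log axis of mean normalized count per kb, grouped by class (46 box C/D, 81 H/ACA, 16 SCARNA), with the class median as a black line and the 3 highest of each class named. The medians lie at 1269, 1351 and 1131, while the range within a class is 292-fold for C/D, 356-fold for H/ACA and, without the 3 long non-coding models, 24.5-fold for SCARNA.

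The position of these RNAs among all genes is partly set by the table itself. All 15917 listed genes have a mean normalized count of at least 26.7, and a short RNA at that minimum already has a high level per kb, 298 at the median C/D length and 199 at the median H/ACA length, against a median of 137 over all genes. Any listed RNA under 196 bases therefore lies above that median, which holds for 122 of the 143. In all, 142 of 143 lay above it, of which 122 had to, while of the 21 longer RNAs, whose side the minimum does not fix, 20 did. By unscaled mean normalized count, 104 of the 143 lay below the median of all listed genes, 364, and 31 lay below 60.

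SNORD3A was the most abundant C/D RNA at 82299 per kb of its 699-base model, with a mean normalized count of 57527 that ranked 27th in the whole table. U3 is the snoRNA around which the processing complex of the small ribosomal subunit assembles. The other 3 U3 genes stood far lower, SNORD3C at 6331, SNORD3B-1 at 2542 and SNORD3B-2 at 684 per kb, a 120-fold range among cores that are 99.1 to 100% identical. Scaled to the 217-base core, SNORD3A reached 265100 per kb and SNORD3B-2 stood at 2493 per kb. Because the cores are so alike, the split of the counts among the 4 genes rests on the flanks of their models and on the authors' quantification.

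The other RNAs grouped here under cleavage of the ribosomal precursor ranged over nearly the whole scale. SNORA73B (U17), needed for early cleavage on the small-subunit side, was the most abundant H/ACA RNA at 66704 per kb, and its copy SNORA73A followed at 31734 per kb. The copies are 93.2% identical and differed 2.10-fold. SNORD14 (U14), another small-subunit factor, was measured in 3 copies, with SNORD14C in *HSPA8* at 15282 per kb and SNORD14B and SNORD14A in *RPS13* at 2014 and 498 per kb. These copies are 76.9 to 85.7% identical, and their levels differed 30.7-fold. SNORD22 (U22), also of the small-subunit pathway, stood at 11436 per kb. SNORD118 (U8), which serves the large subunit, was at 1750 per kb and lies inside an exon of *TMEM107* (139 per kb). It is 1 of 2 RNAs placed in an exon of the listed gene that contains them. This position does not show that SNORD118 is made from *TMEM107*. SNORD13 (U13), with no host gene among those listed, stood at 625 per kb. Its place in this group does not establish a part in cleavage itself.

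Among the remaining abundant C/D RNAs, SNORD15B, a methylation guide for large-subunit rRNA, stood at 47113 per kb and its relative SNORD15A at 8613 per kb, a 5.47-fold difference within 1 host, *RPS3*. SNORD10, a guide for the U6 spliceosomal RNA, stood at 42942 per kb and SNORD17, at 237 bases the longest C/D RNA listed, at 7718 per kb. The lowest 4 were SNORD32A (450 per kb), SNORD89 (338 per kb), SNORD11 (320 per kb) and SNORD91B (282 per kb), with mean normalized counts from 26.9 to 62.5. The model of SNORD91B has 222 bases, and over the 86 bases of the RefSeq RNA it stood at 727 per kb, above SNORD45C (473 per kb). The lowest of these counts, that of SNORD11, was just above the lowest value in the table.

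The leading H/ACA RNAs after SNORA73B and SNORA73A were SNORA24 (12337 per kb), SNORA64 (12278 per kb) and SNORA18 (10643 per kb), followed by SNORA23 (9691 per kb), SNORA70 (9423 per kb) and SNORA81 (8782 per kb). SNORA64 and SNORA70 are pseudouridylation guides of rRNA whose hosts, *RPS2* and *RPL10*, encode ribosomal proteins. At the other end stood SNORA36A (228 per kb), SNORA80B (221 per kb), SNORA2A (218 per kb) and SNORA59A (187 per kb). SNORA59A has an annotated copy, SNORA59B, of identical sequence.

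SCARNA genes spanned 5655 to 23.1 per kb. SCARNA10, a composite guide for the U5 spliceosomal RNA, led at 5655 per kb, with SCARNA13 at 5353, SCARNA16 at 4378 and SCARNA22 at 4142 per kb behind it. A middle group held SCARNA12 (2582), SCARNA5 (1804), SCARNA1 (1440), SCARNA6 (1314), SCARNA4 (947) and SCARNA7 (894 per kb). SCARNA2 and SCARNA9, guides for the U2 spliceosomal RNA, stood at 551 and 532 per kb. SCARNA20 (256), SCARNA8 (254) and SCARNA18 (231 per kb) had mean normalized counts between 30.9 and 33.5, near the minimum of the table. The SCARNA17 row, which holds the count of *SNHG22*, had 23.1 per kb over its long model. No level of the scaRNA itself can be read from it. SCARNA5 and SCARNA6 lie in different introns of 1 host, *ATG16L1*.

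Copies of a family differed in their listed level even where their sequences were nearly the same. SNORA7A (2279 per kb, in *RPL32*) and SNORA7B (256 per kb, no listed host) are 98.6% identical and differed 8.90-fold. SNORA22 (3295 per kb) and SNORA22C (852 per kb), 98.5% identical and in the related hosts *CCT6P1* and *CCT6P3*, differed 3.87-fold. How reads were shared within these near-identical pairs is uncertain. The mean normalized count of SNORA7B was 35.6, near the lowest listed value of 26.7. Less similar relatives within a single host also differed, SNORA21 (4664 per kb) and SNORA21B (316 per kb) in *RPL23* by 14.8-fold and SNORD45A (4315 per kb) and SNORD45C (473 per kb) in *RABGGTB* by 9.13-fold. By contrast SNORA3A and SNORA3B in *RPL27A* stood at 2127 and 2249 per kb. These families were picked after their values were seen.

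Of the annotated RNAs only a part reached the table. It lists 46 of 314 annotated SNORD genes (14.6%), 81 of 214 SNORA genes (37.9%) and 14 of 25 genes named SCARNA in GENCODE (56.0%), in all 141 of 553 (25.5%), against 25.2% of all annotated genes. The 2 further RNAs are the SCARNA2 and SCARNA17 rows, whose identifiers carry other names in GENCODE. None of the 122 genes of the imprinted SNORD113 to SNORD116 clusters was listed. *SNHG14*, which spans the SNORD115 and SNORD116 genes, was listed at a mean normalized count of 48.6, or 6.94 per kb, and none of the 84 annotated C/D RNAs within it was. Without those clusters the C/D share is 24.0%. An RNA that is not listed lay under the minimum of the table or was dropped for another reason, and is not shown to be absent from the cells.

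Among C/D RNAs under 200 bases, the listed share was lowest for the shortest. Without the imprinted clusters, 13 of 104 C/D RNAs under 80 bases were listed (12.5%), 17 of 55 from 80 to 99 bases (30.9%), 4 of 13 from 100 to 119 bases, 7 of 9 from 120 to 199 bases, and 5 of 11 from 200 bases on (45.5%). Among H/ACA RNAs, 0 of 18 shorter than 120 bases were listed, against 66 of 159 from 120 to 139 bases (41.5%). Among listed C/D RNAs, longer ones also had higher unscaled mean normalized counts (Spearman's rho 0.56 over 46 RNAs) and levels per kb (0.38), while for H/ACA RNAs the same rho was 0.22 and 0.17 over 81 RNAs. These are descriptions across RNAs of the same libraries, and the minimum of the table alone already favours long RNAs of a given level per kb.

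**Figure D2:**
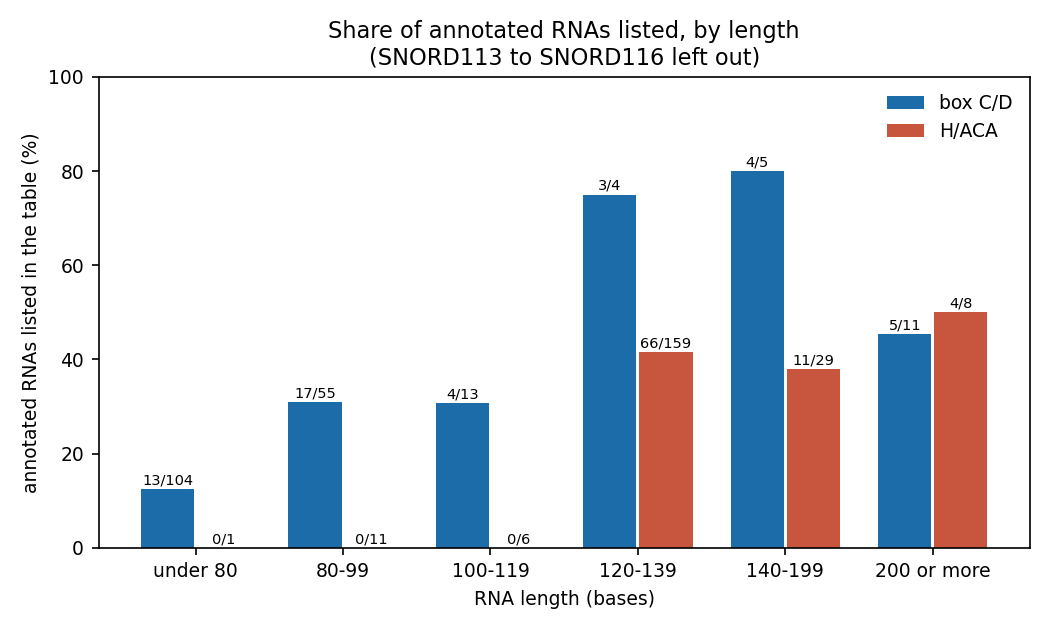
Bars give the percentage of annotated box C/D and H/ACA RNAs that the table lists in 6 length ranges (bases), with listed and annotated numbers above each bar and the SNORD113 to SNORD116 genes left out. The C/D share is 12.5% under 80 bases and 30.9% from 80 to 99 bases, and above 119 bases each C/D bar rests on 4 to 11 annotated RNAs.

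The boxes were present in most of the listed RNAs. Box D (CUGA within the last 15 bases) was found in 45 of 46 C/D RNAs, the exception being SNORD97. Box C in its strict form within the first 25 bases stood together with box D in 26 of 46 (56.5%), against 60.4% of the 268 C/D RNAs not listed. Those 268 include the 122 genes of the SNORD113 to SNORD116 clusters. With 1 mismatch allowed these shares were 82.6% and 81.0%. The 8 C/D RNAs without the pair were the 4 SNORD3 genes, SNORD118, SNORD13, SNORD28 and SNORD97, so that 6 of the 8 belong to the processing RNAs described above. Box H, searched from 35 to 70% of the length, and a 3′ box of ANA followed by 2 to 4 bases were both found in 74 of 81 H/ACA RNAs (91.4%), against 101 of the 133 not listed (75.9%). With ACA alone the shares were 82.7% and 57.1%. Of H/ACA RNAs, none of the 81 had boxes C and D, and 2 of 46 C/D RNAs had boxes H and ANA (4.35%).

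Of the 13 SCARNA genes annotated as small RNAs, 5 held the pair of boxes C and D (SCARNA5, SCARNA6, SCARNA7, SCARNA10 and SCARNA12) and the other 7 with a pair held H and ANA. Each of the 5 also had a match to 1 of the boxes H and ANA but not to both, so the search did not find the H/ACA part that a composite guide such as SCARNA10 is known to have. SCARNA13 held neither pair by this search, although its ACA box is found at the 3′ end of the sequence given above. The letters UGAG, which the Cajal body signal of H/ACA scaRNAs contains, occurred in 12 of the 13, against 5 of 11 SCARNA genes not listed, 34 of 81 listed H/ACA RNAs (42.0%) and 57 of 133 not listed (42.9%). They also occurred in 40 of 46 C/D RNAs (87.0%), where they can overlap box C or box D, as they can in the 5 SCARNA genes with these boxes. The 14 listed genes named SCARNA in GENCODE were also longer, at a median of 226 bases. Those not listed had a median of 136 bases and listed H/ACA RNAs 134 bases. A longer RNA has more places for a match, and the part of length was not tested. The AUA element that the study links to RBMS3 (A, G or U, then A or U, then AUA, then A or U, then A) occurred in 2 of 46 C/D RNAs (4.35%), 9 of 81 H/ACA RNAs (11.1%) and 1 of the 13 SCARNA genes. Among RNAs not listed, with the SNORD113 to SNORD116 genes kept in, the shares were 5.22%, 12.8% and 3 of 11. The C/D RNAs with the element were SNORD97 and SNORD58A, and the most abundant H/ACA RNA with it was SNORA73A. All motifs were searched on the strand of the RNA only, and a match is not a binding site.

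Of the 143 RNAs, 133 lay within a listed gene on the same strand, taken as the host by position alone, and 95 different genes served as hosts. By the canonical transcript of the host, 124 were intronic, 2 exonic (SNORD118 and SNORA9) and 7 outside its span. The 10 without a listed host were the 4 SNORD3 genes, SNORD13, SNORD62A, SNORA7B, SNORA11F, SCARNA2 and SCARNA17. SCARNA17 was placed by the span of *SNHG22*. Among these 133 listed RNAs, the level per kb was little related to that of the host. RNAs and hosts that were not listed do not enter this relation. Spearman's rho was 0.14 over the 133 RNAs, 0.12 over 40 C/D RNAs, 0.10 over 79 H/ACA RNAs and 0.53 over 14 SCARNA genes, where many points share a host and all share their libraries. The median ratio of RNA to host was 1.36 (range 0.0154 to 137), with 75 of 133 above their host. It was 0.98 for C/D RNAs (20 of 40 above), 1.18 for H/ACA RNAs (42 of 79) and 3.23 for SCARNA genes (13 of 14). The minimum of the table fixes part of these counts, since a short listed RNA cannot lie below a host of low level. SCARNA8, SCARNA18 and SCARNA20, in hosts at 96.65, 140 and 187 per kb, had to lie above them for this reason.

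The kind of host went with where an RNA stood beside it. In 16 non-coding snoRNA host genes, the 30 RNAs had a median of 2314 per kb and a median ratio of 5.39, with 28 above their host. SNORA73B stood 137-fold and SNORA73A 65.2-fold above *SNHG3* (487 per kb), SNORA24 87.4-fold above *SNHG8* (141 per kb), and SCARNA13 129-fold above *SNHG10* (41.6 per kb). These ratios rest on canonical host transcripts of 2201, 6166 and 3043 bases, and a shorter host RNA would lower them. Unscaled, SNORA73B (13608) and SNORA73A (6537) stood beside 1071 for *SNHG3*, SNORA24 (1616) beside 871 for *SNHG8*, and SCARNA13 (1472) beside 127 for *SNHG10*. In ribosomal protein genes and *RACK1*, the 32 RNAs in 22 hosts had a median of 1742 per kb but a median ratio of 0.182, and only SNORD15B, SNORA70 and SNORA21 exceeded their host. SNORA52 stood at 629 per kb in *RPLP2* (40742 per kb), the lowest ratio of all, and SNORD95 at 752 per kb in *RACK1* (20098 per kb). The 10 RNAs in 6 translation factor genes had a median of 3558 per kb and 5 exceeded their host. None of the 7 RNAs in 6 genes of nucleolar proteins did, at a median of 338 per kb, or 585 per kb by RefSeq lengths, which shorten SNORD91B. The remaining 54 RNAs in 45 hosts had a median of 1193 per kb and a median ratio of 2.10. These kinds were set after the hosts were seen, and since the ratio has the host level in its denominator, hosts of high level give low ratios by construction. The minimum of the table also fixes part of the counts above a host. It gives 298 per kb at the median C/D length and 199 per kb at the median H/ACA length. The 16 non-coding snoRNA host genes had a median of 199 per kb. A listed RNA as short as SNORA24 thus had to exceed *SNHG8* (141 per kb).

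**Figure D3:**
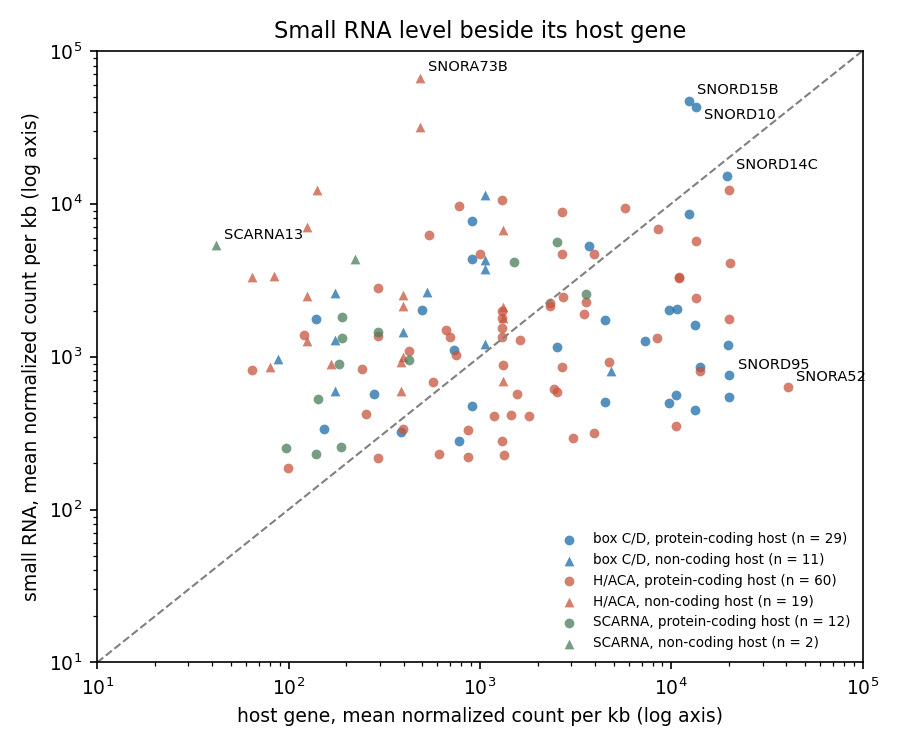
Each point is 1 of 133 RNAs, with the mean normalized count per kb of its host gene on the horizontal log axis and its own on the vertical log axis, coloured by class and shaped by whether the host is protein-coding. The dashed line marks equal levels, and 75 of 133 points lie above it, including SNORA73B and SCARNA13 at the left, while SNORA52 lies furthest below.

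RNAs of the same host differed widely in level. Of 25 hosts with at least 2 listed RNAs, the fold between the highest and the lowest had a median of 4.05 (range 1.02 to 38.2) and exceeded 2 in 17. *TAF1D*, which encodes a subunit of an RNA polymerase I factor, held 6 H/ACA RNAs, SNORA18 at 10643 per kb, SNORA8 at 1990, SNORA25 at 1777, SNORA40 at 1542, SNORA1 at 1351 and SNORA32 at 279 per kb, beside 1309 per kb for the gene. Thus 4 of the 6 stood at 1.03 to 1.52 times the host, with SNORA18 far above and SNORA32 below them. All 6 lie in the span of the gene but outside its canonical transcript, and each overlaps an annotated exon of *TAF1D*. The part of *TAF1D* exon reads in their levels was not tested. The gene also spans SNORD5 and SNORD6, which were not listed. *EIF4A1*, the gene of a translation initiation helicase, held SNORD10 at 42942, SNORA48 at 5709 and SNORA67 at 2433 per kb, beside 13409 per kb. Its paralog *EIF4A2* held SNORA81 at 8782, SNORA63 at 4682 and SNORA4 at 855 per kb, beside 2699 per kb.

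Among non-coding hosts, *SNHG1* (1069 per kb) held SNORD22 at 11436, SNORD26 at 4297, SNORD27 at 3740.5 and SNORD28 at 1216 per kb, while SNORD25 and SNORD30 in the same gene were not listed. *SNHG17* (1328 per kb) held SNORA71A at 6690, SNORA71C at 2115, SNORA71D at 1788 and SNORA71B at 696 per kb. The model of SNORA71B is 272 bases long, and over the 136 bases of the RefSeq RNA it stood at 1391 per kb. *ZFAS1* (174 per kb) held SNORD12B at 2599, SNORD12C at 1280 and SNORD12 at 596 per kb, all above the gene per kb of its 4526-base canonical transcript. At their lengths the minimum of the table alone puts any listed RNA above 174 per kb. Their unscaled mean normalized counts (236, 114 and 53.6) lay below that of *ZFAS1* (789). *SNHG12* (399 per kb) had the narrowest range of the 7 genes with 3 or more RNAs, 2.57-fold, from SNORA44 at 2547 to SNORA16A at 991 per kb.

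**Figure D4:**
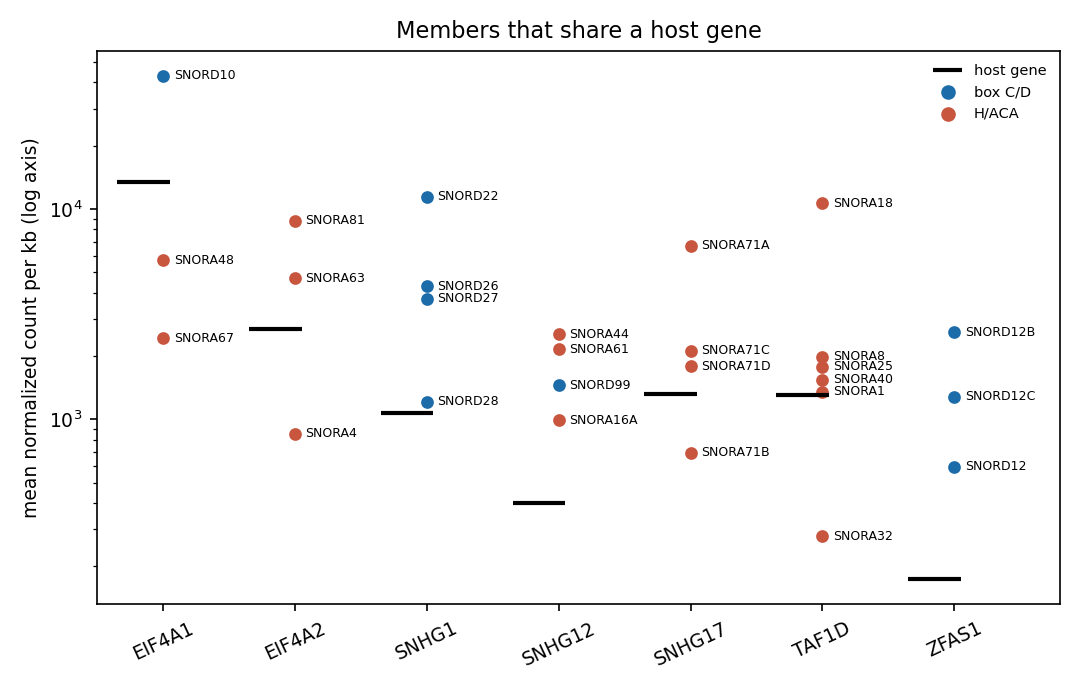
For the 7 host genes with at least 3 listed RNAs, points give each RNA and black bars the host gene, on a log axis of mean normalized count per kb. RNAs of 1 host span from 2.57-fold (*SNHG12*) to 38.2-fold (*TAF1D*), and all RNAs of *SNHG1*, *SNHG12* and *ZFAS1* lie above their host.

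Within introns, C/D RNAs lay closer to the downstream exon than the other classes. The median distance from the 3′ end of the RNA to that exon was 116 bases for 38 C/D RNAs, 311 bases for 72 H/ACA RNAs and 509 bases for 14 SCARNA genes. Between 50 and 100 bases lay 17 C/D RNAs (44.7%), 18 H/ACA RNAs and 4 SCARNA genes. For RNAs that were not listed but lay in an intron of a listed host, those shares were 40 of 135 (29.6%) for C/D and 5 of 55 (9.09%) for H/ACA. Among RNAs within a listed gene, those not listed also had hosts of lower level, with each host counted once. Listed H/ACA RNAs (79 of 81 in a listed gene) had 58 hosts at a median of 1095 per kb. Those not listed (59 of 133) had 54 hosts at a median of 176 per kb. The C/D medians were 2535 per kb over 29 hosts (40 of 46 RNAs) and 1003 per kb over 68 hosts (192 of 268). The SNORD113 to SNORD116 genes were not left out here. No test was made of these differences, since RNAs of a host are not independent.

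The 81 RNAs that overlap an exon of another gene had a median of 1990 per kb, and the other 62 had a median of 840 per kb. By class the medians with and without an overlap were 1430 and 1195 per kb for C/D, 2053 and 822 per kb for H/ACA, and 4378 and 551 per kb for SCARNA genes. The part of exon reads in these levels was not tested. Among the 8 highest RNAs of each class, 4 C/D, 6 H/ACA and 5 SCARNA genes had an overlap, including SNORD10, SNORA73A and SCARNA10, while SNORD15B and SNORA73B had none.

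The protein genes that build these particles were all listed, from a list of 23 chosen for their roles. The C/D core genes stood at 2535 per kb for *NOP56*, 2493 per kb for the methyltransferase *FBL*, 1326 per kb for *SNU13* and 387 per kb for *NOP58*. The H/ACA core genes stood at 1569 per kb for *NHP2*, 1338 per kb for the pseudouridine synthase *DKC1*, 847 per kb for *NOP10* and 253 per kb for *GAR1*. The 9 assembly factors ranged from 67.7 (*NUFIP1*) to 3437 per kb (*RUVBL2*), with a median of 206 per kb, and the H/ACA factors *NAF1* and *SHQ1* stood at 206 and 168 per kb. Of 5 Cajal body and nucleolar factors, *NOLC1* was highest at 2190 per kb and *COIL*, which encodes coilin, lowest at 202 per kb, with *WRAP53*, whose product binds scaRNAs, at 319 per kb. *DBR1*, the enzyme that opens the intron lariat, stood at 69.0 per kb. Some of these genes are hosts themselves, as *DKC1* holds SNORA36A (228 per kb), *NOP56* holds SNORD110 (1152 per kb) and SNORA51 (585 per kb), and *NOP58* holds SNORD11 (320 per kb), each below its host.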

How the data were processed

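Libraries were made from total RNA with a stranded low-input kit that depletes ribosomal cDNA. The submitters' processing notes name Salmon, DESeq2 and hg38, with versions for this experiment not given in the sources used here. The authors deposited 1 table, in which the signal used is a mean normalized count per gene, averaged over libraries. Its other columns hold the authors' own comparison of knockdown and control (fold change, error, statistic and p-values) and were not used, so the planned count test could not be run and depth is unknown. Genes were joined by identifier to GENCODE 44 (15829 of 15917), and means were divided by the length of the canonical transcript. The host was the smallest listed gene containing an RNA on its strand. The sequence of 1 abundant C/D RNA is not reported here. Coordinates are GRCh38, and RefSeq lengths are from GRCh38.p14. The searches for boxes C, D and ACA, the identity measure and the scaling by length were tested on simulated data. The search for box H and the assignment of hosts were not. Computation was done in Python 3.11.15 (pandas 2.3.3, numpy 2.4.6 and SciPy 1.17.1) and plots in matplotlib 3.10.9.

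Named were the 8 highest and 4 lowest RNAs per class, all SCARNA genes, the RNAs of precursor cleavage, those sharing a host with at least 2 others, and the protein genes. Other names were chosen after their values were seen. Members and lists were chosen with earlier results of these data known.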

Additional observations from a re-analysis of the deposited data

How the results depend on the processing

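Of 32 alternative values for 10 results, 21 stayed within 1.5-fold of a median or within the 95% Wilson interval of a share, and 11 moved further. Part of this tally was fixed in advance, so it does not measure robustness. The longest transcript of each RNA has the length of its canonical one. Leaving out SNORD113 to SNORD116 cannot change the H/ACA or SCARNA share. Values without scaling are in another unit, and a minimum count of 100 selects on the level itself. Without scaling by length the class medians were 113 (C/D), 189 (H/ACA) and 267 (SCARNA). With a mean normalized count of at least 100 they were 2631 (C/D) and 2141 per kb (H/ACA). Without exon overlaps they were 822 (H/ACA) and 551 per kb (SCARNA). Without SNORD113 to SNORD116, a choice made after seeing the data, the listed share was 24.0% for C/D and 32.7% for all classes. The box share was 82.6% for C/D with 1 mismatch in box C and 82.7% for H/ACA with ACA strictly. The longest transcript, RefSeq lengths, and leaving out near-identical copies, long non-coding models or doubly annotated RNAs moved no median beyond 1.5-fold, and the longest containing gene as host gave a median ratio of 1.59. RefSeq lengths and the last omission were also chosen after seeing the data. The size factors and filter of DESeq2, the comparison of DESeq2 with edgeR and leaving out each replicate were not run, since they need values per library. No paired analysis was possible because the table holds 1 mean per gene and no value per replicate. Unknown depth limits low values most, and 31 of the 143 RNAs had a mean normalized count below 60.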
